A study of Mus musculus with 2 samples.

Results

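The genes of the constitutive proteasome were followed in salivary gland epithelial cells of a young and an aged mouse. They were chosen by name, as all genes whose symbol on the array began with Psma to Psmg followed by a digit, leaving out the immunoproteasome genes Psmb8, Psmb9 and Psmb10. The rule found 46 genes with 90 probes among 37003 gene names on the array. The cells were EpCAM-positive cells of the submandibular gland, taken up with magnetic beads from C57BL/6 females (C57BL/6N in the study's methods), 1 mouse at 9 weeks (young) and 1 at 24 months (aged). The study's methods give only a lower bound for the purity of such cells, so other cells may be among them. The labels name no transgene or treatment in either mouse. Per the study's methods, young and aged mice came from different breeding facilities, so that age and origin cannot be told apart. RNA of each age was labelled with Cy3 and hybridized to 1 array of 60-base probes, and both arrays lay on 1 slide. With 1 array per age there is no replicate, no test and no p-value for any difference below.

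The proteasome degrades proteins that carry ubiquitin chains. Its 20S core is a barrel of outer alpha rings, which gate the entrance, and inner beta rings, which hold the proteolytic sites. The 19S regulatory particle caps the barrel. Its lid removes ubiquitin, and its base of ATPases unfolds the substrate and feeds it into the core. Because the parts are used in fixed proportions, their genes are known to be co-regulated, in mammals through the transcription factor Nfe2l1 (Nrf1), which binds antioxidant response elements in their promoters. In exocrine gland cells, which make large amounts of secretory protein, the proteasome also takes up misfolded protein returned from the endoplasmic reticulum.

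Both arrays gave signals well above background for 44 of the 46 genes, and neither did for 2. The 2 were Psma8, the alpha subunit of the testis, and Psmb11, the beta subunit of the thymus. One further match, Psmc3ip, encodes a recombination cofactor named after a proteasome subunit that it binds and is not itself part of the complex. It was kept in the counts over 44 genes, since the rule found it, and is given apart, which leaves 43 proteasome genes. Psme2 had no probe under its own name, and the files also assign to it the probes named Psme2b, so those values cannot be credited to either gene alone.

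Several of the values below turn on which transcript a probe reads, so the probes concerned are shown first. They are written 5′ to 3′ as on the array, with positions on mm9, the build of the files. The capitals in the Psmb2 pair mark the 36 bases that both probes share. The probes to RefSeq transcripts shown at full length spanned more of the genome than their 60 bases and so joined exons. Those that lay within 1 stretch of the genome are shown by their first 30 bases.
Psmb2, RefSeq transcript, first probe, chr4:126361456-126364299, plus strand: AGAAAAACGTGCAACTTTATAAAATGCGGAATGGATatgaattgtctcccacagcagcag
Psmb2, RefSeq transcript, second probe, chr4:126361432-126364275, plus strand: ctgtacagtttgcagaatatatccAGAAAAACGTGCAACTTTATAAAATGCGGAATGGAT
Psmb2, cDNA record, chr4:126362768-126362827, plus strand: aaacaaaagaagggctagaaagaggctcag
Psmc6, RefSeq transcript, chr14:45966487-45968313, plus strand: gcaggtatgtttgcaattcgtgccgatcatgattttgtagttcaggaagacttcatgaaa
Psmc6, cDNA record, chr14:45969130-45969189, plus strand: ctattatttcttaggttcaccagtggattc
Psmb7, RefSeq transcript, chr2:38468966-38489385, minus strand: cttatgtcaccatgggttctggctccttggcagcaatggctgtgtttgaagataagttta
Psmb9, RefSeq transcript, chr17:34319174-34319233, minus strand: cagctgctggtgtggaccatcgagtcatcc
The cDNA record of Psmb2 lay between the genome ends of its RefSeq probes, inside the gap that those probes bridge.

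Differences are given as aged minus young on the log2 scale, after each array's processed intensities were divided by its 75th percentile (256 young, 198 aged). The set as a whole was slightly and evenly higher on the aged array. The median over the 44 genes was 0.34, with the middle 50% of genes between 0.21 and 0.43, and 38 of the 44 lay within 0.25 of the median. No gene was 2-fold higher and none was 2-fold lower, the threshold of the study's methods. Among all 18745 genes well above background on both arrays, 1.52% were 2-fold or more above young and 3.05% were 2-fold or more below, so that counts of 0 among 44 were near these shares. Of the 44 genes, 41 were above 0, against 59.9% of all genes, whose median was 0.09. The middle 50% of all genes spanned 0.51, more than the 0.22 of the proteasome set, and 71.5% of all genes lay between the lowest and the highest proteasome value.

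**Figure D1:**
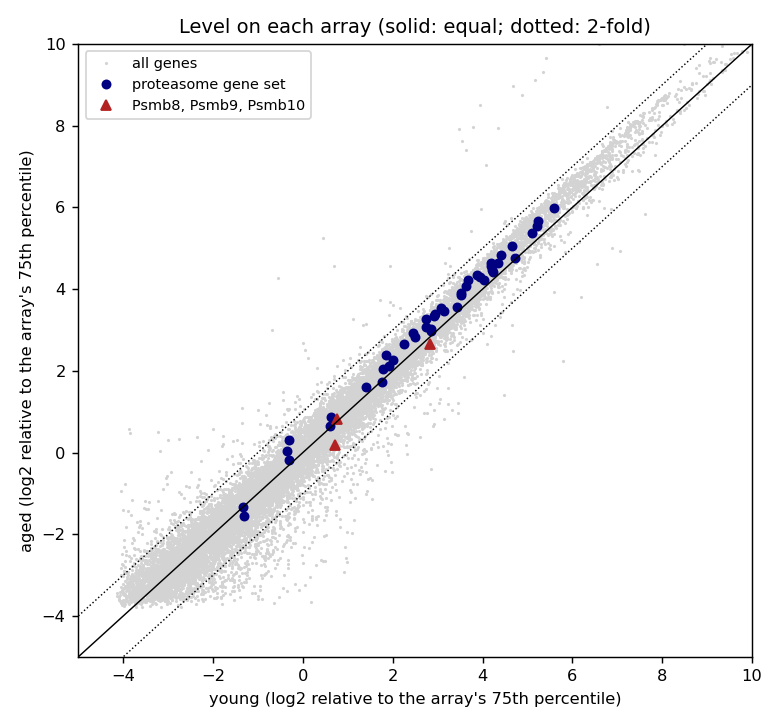
Level on the aged array (vertical) against the young array (horizontal), as log2 relative to each array's 75th percentile, for the 18745 genes well above background on both (grey), the 44 genes of the proteasome set (blue circles) and Psmb8, Psmb9 and Psmb10 (red triangles). The proteasome genes lie between the equal line and the upper 2-fold line, except for 3 genes just under the equal line.

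The size of this shift depended on how the arrays were set level, and its median was below 0 only without scaling. The unscaled signal of the aged array was lower in general, and the unscaled ratio of aged to young had a median of 0.975 over the 44 genes, with 19 of them above 1. The median was 0.063 with loess (27 genes above 0), 0.082 with the spike-in controls (29 above 0), 0.12 with quantile normalization (29 above 0) and 0.51 when the arrays were centred on their medians (43 above 0). The median of all genes moved as well, from -0.28 unscaled and -0.16 with the spike-in controls to 0.27 with median centring. The share of all genes above 0 was 45.8% with loess, 32.9% with the spike-in controls and 53.6% with quantile normalization. It was 75.5% with median centring and 22.5% unscaled. The proteasome median lay above that of all genes in every setting, by 0.24 in the main one and by 0.091 and 0.10 with quantile normalization and loess.

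Brightness moved with these differences over the whole array. Among genes whose mean log2 level was up to 0, the median difference of all genes was 0.00, and it was 0.07 between 0 and 2, 0.17 between 2 and 4, and 0.39 above 4. The 15 proteasome genes above 4 had a median of 0.36, close to all genes of that brightness. The 19 proteasome genes between 2 and 4 had a median of 0.39, against 0.17 for all genes there, whose middle 50% ran from -0.04 to 0.35. The 6 genes between 0 and 2 had a median of 0.23 and the 4 dimmest one of 0.07. The part of brightness in the proteasome values was not tested.

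**Figure D2:**
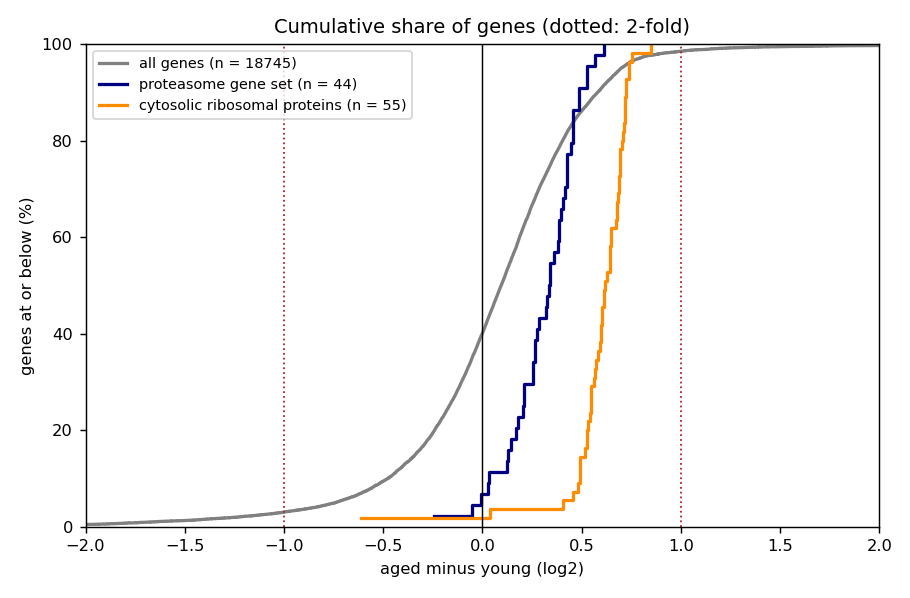
Cumulative percentage of genes (vertical) at or below each aged minus young difference on the log2 scale (horizontal) for all 18745 genes, the 44 genes of the proteasome set and 55 genes of cytosolic ribosomal proteins. The proteasome curve is steeper than that of all genes and lies left of the ribosomal curve but for the lowest ribosomal gene, with medians of 0.34, 0.09 and 0.62.

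Another large complex of fixed composition gave a scale for comparison. The 55 measured genes of cytosolic ribosomal proteins had a median difference of 0.62, with 54 above 0 and none past 2-fold. Their lowest value was -0.61 for Rps4l and their highest 0.85 for Rpl12. The proteasome set thus lay between all genes and the ribosomal genes on this scale. With loess the ribosomal median was 0.035, below the 0.063 of the proteasome set, and with quantile normalization it was 0.083, below 0.12, so that this order depended on the correction for brightness.

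The alpha ring genes, whose products form the gate and the docking surface of the barrel, were all above 0, with a median of 0.28, while only 3 of the 7 were above 0 with loess or quantile normalization (medians of -0.094 and -0.0051). They ran from Psma5 (0.12, with signals of 1850 young and 1558 aged) and Psma4 (0.18) to Psma1 (0.45) and Psma7 (0.49, with signals of 3734 and 4042). Psma2 stood at 0.26, Psma3 at 0.28 and Psma6 at 0.36. The scanner's error model gave each such difference a standard error of about 0.20, as wide as most gaps between these neighbours, so their order is not resolved.

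The beta ring genes had a median of 0.43 (0.076 with loess), and 6 of the 7 lay within a narrow band. The catalytic genes were Psmb5, for the chymotrypsin-like site, at 0.46 (signals of 2162 and 2293), Psmb6, for the caspase-like site, at 0.43 (9631 and 9997), and Psmb7, for the trypsin-like site, at 0.32 (1447 and 1396). The structural genes Psmb1, Psmb3 and Psmb4 stood at 0.34, 0.45 and 0.43.

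Psmb2, the remaining structural beta gene, was the exception. Its brightest probe, to the cDNA record shown above, gave 874 ± 87.5 young and 651 ± 65.2 aged (± error of the scanner's model, 1 array each), a difference of -0.05. The 2 overlapping probes to its RefSeq transcript gave 0.52 and 0.46, both above the highest of the other beta genes, Psmb5. The place of Psmb2 at the foot of the complex therefore rested on the choice of probe, and by its RefSeq probe it stood above the median of the set.

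**Figure D3:**
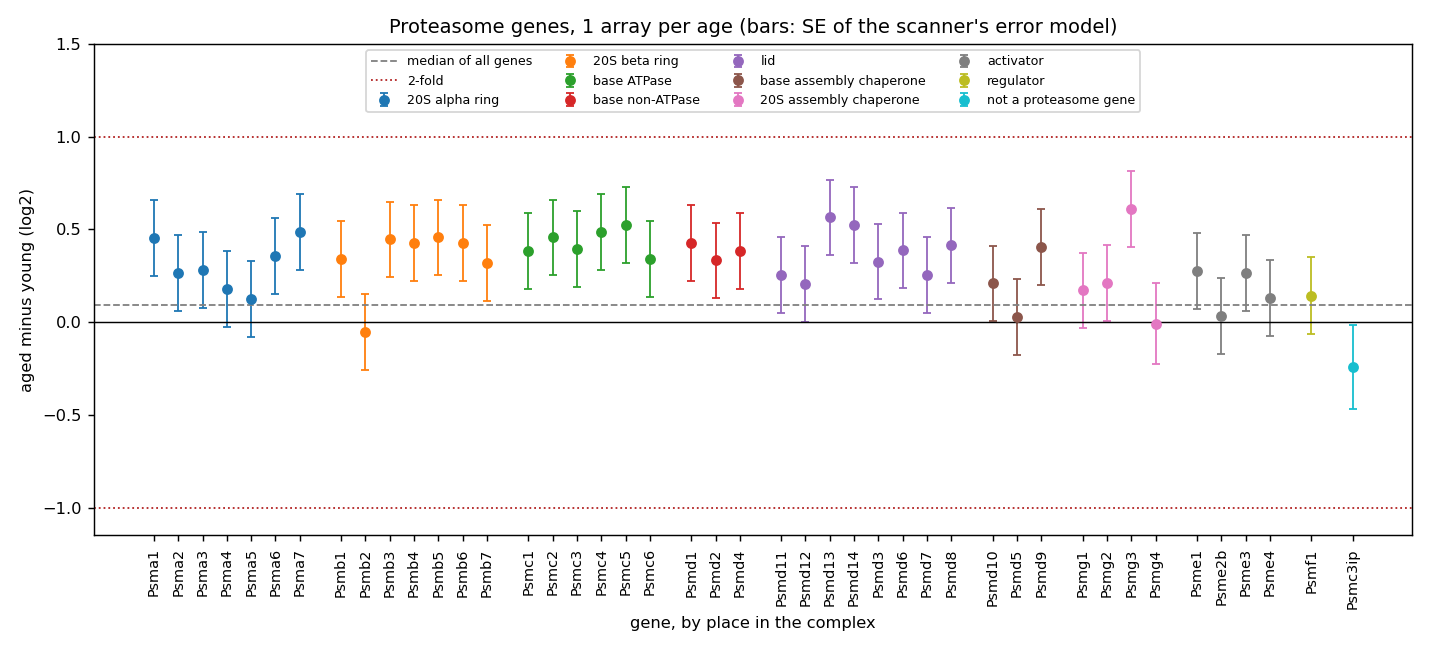
Aged minus young difference on the log2 scale (vertical) of the 44 genes, ordered and coloured by place in the complex, 1 array per age. Bars are the standard error from the scanner's error model and the dashed line is the median of all genes; all 6 ATPases lie between 0.34 and 0.53, and no gene reaches either dotted 2-fold line.

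The base and the lid of the regulatory particle behaved like the core. The 6 ATPases of the base, which form the ring that pulls the substrate in, lay between 0.34 (Psmc6) and 0.53 (Psmc5), with a median of 0.43 (0.084 with loess, 4 of 6 above 0). Psmc5 was the third highest gene of the set, with 1724 ± 172 young and 1917 ± 192 aged. The other ATPases were Psmc1 at 0.38, Psmc2 at 0.46, Psmc3 at 0.40 and Psmc4 at 0.49. The scaffold subunits of the base, Psmd1 and Psmd2, stood at 0.43 and 0.33, and the ubiquitin receptor Psmd4 at 0.38. The ubiquitin receptor Adrm1, whose name the rule does not match, stood at 0.43.

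All 8 lid genes were above 0 (6 with loess, and 5 with the spike-in controls), with a median of 0.36 and a range from 0.21 (Psmd12) to 0.57 (Psmd13). Psmd13, the second highest of the set, read 3252 ± 325 young and 3717 ± 372 aged, a 1.48-fold difference with a standard error of 0.20 on the log2 scale, and its dimmer probe gave 0.58. Psmd14, the enzyme that cuts ubiquitin chains from substrates as they enter, stood at 0.52 by its brightest probe and at 0.14 by a second probe to the same RefSeq transcript. The other lid genes, Psmd3, Psmd6, Psmd7, Psmd8 and Psmd11, lay between 0.25 (Psmd7) and 0.41 (Psmd8). Of the 31 genes of the core, base and lid together, 30 were above 0 by their brightest probe, and the median was 0.38.

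The genes for parts that are not in the finished 26S particle, or join it only at times, had lower values on the whole. These 12 genes had a median of 0.19, with 11 above 0 and 9 above the median of all genes. The difference between this median and the 0.38 of the core, base and lid was not tested. With loess the medians were 0.076 and 0.020 and with the spike-in controls 0.13 and -0.064. The chaperones that assemble the base were Psmd5 at 0.03, Psmd10 at 0.21 and Psmd9 at 0.41. The chaperones that assemble the 20S core held both extremes of the 43 proteasome genes outside Psmb2. Psmg3 was the highest of all, with 208 ± 21.1 young and 245 ± 24.8 aged, a 1.53-fold difference (0.61, with an error-model standard error of 0.21). Psmg4, which forms a dimer with Psmg3 during assembly, read 102 ± 10.7 and 78.6 ± 8.5, a difference of -0.01. Psmg1 and Psmg2, which form the other assembly dimer, stood at 0.17 and 0.21. Pomp, the maturation chaperone of the 20S core, is not matched by the rule and stood at 0.42.

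The activators open the core in place of the regulatory particle. Psme1, a subunit of the interferon-inducible activator PA28, stood at 0.28, and the probes under the name Psme2b, which the files also assign to its partner Psme2, gave 0.03 and 0.11. Psme3, the nuclear activator, stood at 0.27 and Psme4, the activator PA200, at 0.13. Psmf1, an inhibitor of the core, stood at 0.14. Psmc3ip, the match outside the complex, was the lowest gene found by the rule, with 103 ± 10.9 young and 67.2 ± 7.67 aged, a difference of -0.24.

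Within a gene, probes to the RefSeq transcript gave like values on the main scale. Probes to other transcript records mostly gave lower aged minus young differences than the gene's brightest RefSeq probe. This split was made after the values had been seen. Over 24 further RefSeq probes of 19 of the genes, the difference from the gene's brightest RefSeq probe had a median of 0.01 and ran from -0.38 (Psmd14) to 0.13. Over the 9 probes to Ensembl or cDNA records that were well above background on both arrays, the same quantity had a median of -0.36, with 8 below 0. For all genes the corresponding medians were 0.00 for 5180 RefSeq probes and -0.04 for 2531 others, of which 54.0% were below 0. The median of the 9 probes was -0.14 with loess, where the 24 further RefSeq probes had a median of 0.17 and the other records of all genes one of 0.04. With the normexp background correction these medians were -0.21, 0.01 and 0.05.

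The gene with the widest split was Psmc6. Its RefSeq probe, which joins exons, read 2932 and 2866 (0.34), while the probe to a cDNA record further along the plus strand gave -0.89, a gap of -1.23 and the only one over 1 among genes of the set with probes measured on both arrays. Psmc2 split between 0.46 and -0.11, Psma3 between 0.28 and -0.23, and Psmd1 between 0.43 and 0.07. Psme3 went the other way, with 0.45 for the Ensembl record against 0.27. For 3 further probes only the young array was well above background. A Psmd4 probe to an Ensembl record read 27.3 against 9.40 and was lower in aged by at least 1.48-fold, and one of Psmg3 read 27.6 against 11.5 and was at least 1.49-fold lower. The second probe of Psmc3ip was at least 1.04-fold lower. These limits set, after scaling, the young value against 14.3, the faintest signal on the aged array still well above background, which exceeded the aged value in each case. For the 10 remaining probes of the set, neither array gave a signal well above background.

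**Figure D4:**
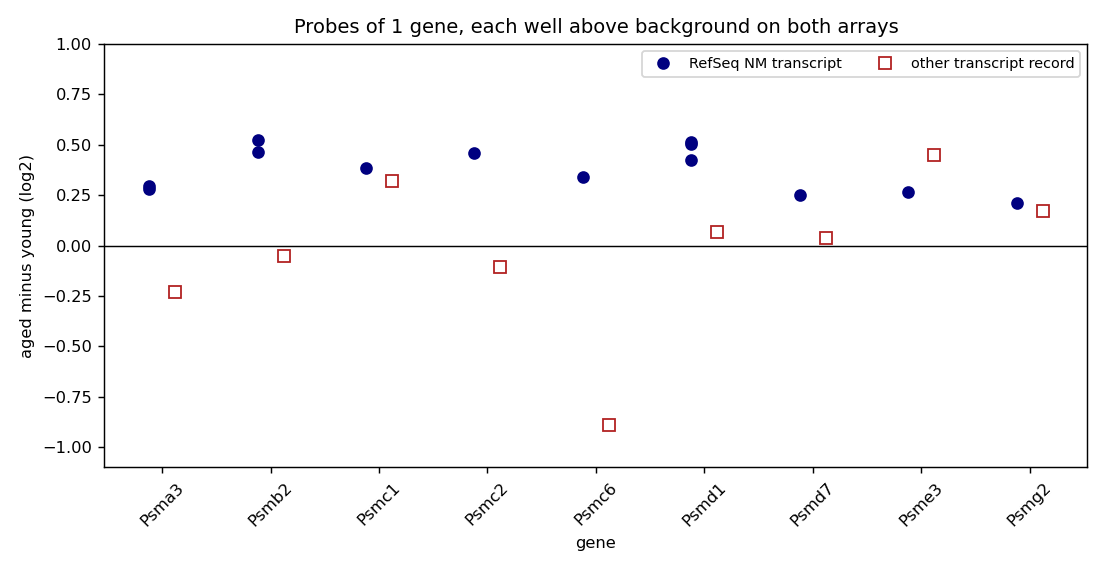
Aged minus young difference on the log2 scale (vertical) of every probe well above background on both arrays, for the 9 genes with a probe to a RefSeq transcript (filled circles) and one to another transcript record (open squares). In 8 of the 9 genes the square lies below the brightest RefSeq probe, by the widest margin in Psmc6, where the values are 0.34 and -0.89.

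The immunoproteasome subunits Psmb8, Psmb9 and Psmb10 take the places of Psmb5, Psmb6 and Psmb7 in cells exposed to interferon and in most leukocytes, and shift the core towards peptides suited to MHC class I. The aged minus young difference of each lay below that of its constitutive counterpart. Psmb8 read 433 young and 349 aged, a difference of 0.06, which was 0.40 under that of Psmb5. Psmb9 read 419 and 226, a difference of -0.52, and the gap to Psmb6 was -0.94 with an error-model standard error of 0.29. Psmb10 read 1810 and 1255, a difference of -0.16, and the gap to Psmb7 was -0.48. The Psmb8 and Psmb10 gaps also had a standard error of 0.29. Their 95% intervals by the error model, -0.96 to 0.17 and -1.04 to 0.09, both held 0. That of the Psmb9 gap ran from -1.51 to -0.37. A gap between probes of the same arrays does not depend on a constant scale. Over the scalings that bend with brightness and the normexp correction the Psmb9 gap ranged from -0.83 to -0.43 and the Psmb8 gap from -0.35 to -0.21, while the Psmb10 gap stayed between -0.49 and -0.48.

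Markers of other cells moved with the immunoproteasome genes. All 5 macrophage and dendritic cell markers were lower on the aged array under each scaling, 4 of them at least 2-fold, and their summed unscaled signal was 33600 young and 9374 aged. Ptprc, carried by all leukocytes, stood at -0.21. The interferon-responsive genes Irf1, Isg15, Tap1 and Ifit1 stood at -0.43, -0.22, -0.25 and -0.20, and each was below 0 under each scaling. The 4 fibroblast markers were lower too, and Pdgfra was measured on the young array only. Of the 7 epithelial markers, Epcam stood at 0.20, Cdh1 at 0.06, Krt8 at 0.03, Krt18 at 0.21, Krt7 at 0.54 and Cldn4 at -0.55, and Krt19 was lower in aged by at least 1.85-fold. The summed signal of the 6 measured on both arrays was 127015 young and 109636 aged before scaling, a difference of 0.16 after it. The 4 genes listed as acinar markers went both ways. The secretory genes Smgc and Amy1 stood at -1.79 and 1.23, the water channel Aqp5 at 0.49 and the transcription factor Bhlha15 at -0.04. Which cells of the gland carried each of the 4 was not tested. In a preparation of many cells, fewer cells of a type and less RNA per cell cannot be told apart, and the part of these cells in the immunoproteasome values was not tested.

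The wider ubiquitin and proteasome pathway was read from a list of 33 genes, of which 32 were measured on both arrays and 1, Paaf1, had no probe of that name. None was past 2-fold, 25 were above 0, against 59.9% of all genes, and the median was 0.26. With loess 16 were above 0, against 45.8% of all genes, and the median was -0.0040. Among those above 0 were Uba1, the main ubiquitin-activating enzyme, at 0.53, and Vcp and Ufd1, which pull ubiquitinated proteins out of complexes and membranes, at 0.53 and 0.60. The shuttle receptors Rad23b and Ubqln1 stood at 0.53 and 0.48, and Ubqln2 and Ubqln4 at -0.02 and -0.05.

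The 7 genes Nfe2l1, Nfe2l2, Ddi2, Ngly1, Zfand5, Zfand2a and Akirin2 were listed under transcriptional control and had a median of 0.04. Whether each of the 7 acts on proteasome transcription was not tested. Nfe2l1 read 1924 young and 1780 aged, a difference of 0.26. Ngly1, which removes glycans from the Nfe2l1 protein, stood at 0.04. Ddi2, the protease that cuts that protein into its active form, read 1188 and 642, a difference of -0.52 and the lowest of the list. The Ddi2 value came from a probe to an Ensembl record and not to a RefSeq transcript. Within genes of the proteasome set, probes to such other records mostly gave lower differences than RefSeq probes. Over all genes the median gap of such probes to the brightest RefSeq probe was -0.04, and 0.04 with loess. The part of the probe in the Ddi2 value was not tested. Nfe2l2 (Nrf2), which binds the same kind of element, stood at -0.31. The differences of Ddi2 and Nfe2l2 were below 0 under all scalings, the nearest to 0 being -0.34 and -0.14, while that of Nfe2l1 ran from 0.01 to 0.44.

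Since Nfe2l1 acts through antioxidant response elements, the promoters were searched for the core TGACNNNGC and for CCAAT, on both strands of the 250 bases before the start (RefSeq, GRCm38.p6). A promoter was found for 38 of the 46 genes. The TGACNNNGC core was present in 5 of the 38 (13.2%), against 11.5% of 27025 genes with a promoter in the table, and CCAAT in 14 (36.8%) against 37.5%, so both were near the share of promoters in general. The 3 promoters below, of genes that held a TGACNNNGC match, are shown with the matches in capitals.
Psmb5, chr14:54617996-54618245, minus strand: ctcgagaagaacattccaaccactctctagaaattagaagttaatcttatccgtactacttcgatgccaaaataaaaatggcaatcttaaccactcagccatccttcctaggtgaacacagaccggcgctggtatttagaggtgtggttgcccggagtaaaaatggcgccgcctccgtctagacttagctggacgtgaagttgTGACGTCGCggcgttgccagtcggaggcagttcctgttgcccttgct
Psmb6, chr11:70525107-70525356, plus strand: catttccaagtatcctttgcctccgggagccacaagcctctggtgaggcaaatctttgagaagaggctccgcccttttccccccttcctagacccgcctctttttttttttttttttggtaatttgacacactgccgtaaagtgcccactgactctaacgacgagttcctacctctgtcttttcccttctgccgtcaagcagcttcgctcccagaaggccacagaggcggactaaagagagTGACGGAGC
Psmc6, chr14:45329574-45329823, plus strand: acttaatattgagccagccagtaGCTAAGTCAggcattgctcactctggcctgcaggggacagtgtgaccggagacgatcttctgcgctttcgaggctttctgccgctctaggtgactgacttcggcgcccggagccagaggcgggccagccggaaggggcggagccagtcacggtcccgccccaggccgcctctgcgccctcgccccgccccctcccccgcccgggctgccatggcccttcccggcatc
The match lay 47 bases before the start in Psmb5 and 9 in Psmb6 on the gene's strand, and 227 before it in Psmc6 on the opposite strand. The other genes with a match were Psmd9 and Psmd12. The 5 genes with the core had a median difference of 0.41, from 0.21 to 0.46, and the 32 measured genes without it one of 0.35, from -0.24 to 0.61, so the values overlapped. A match is a description of the letters and not a bound site.

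**Figure D5:**
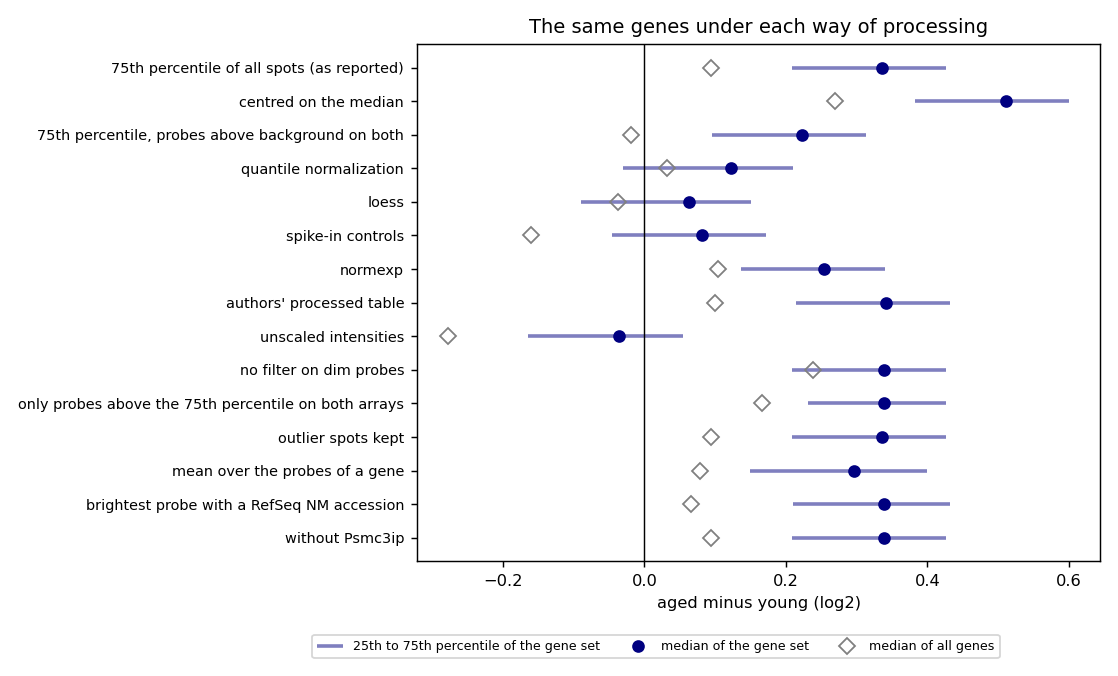
Median (filled circles) and middle 50% (lines) of the aged minus young differences of the proteasome set on the log2 scale (horizontal) under each way of processing (vertical), beside the median of all genes (open diamonds). The proteasome median runs from -0.036 with unscaled intensities to 0.51 with median centring and stays to the right of that of all genes in each setting.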

How the data were processed

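Gene expression was measured in 2 samples, 1 array per age, with Agilent SurePrint mouse arrays. The authors deposited scanner files made with Agilent Feature Extraction 12.0.3.1 (per the submitters' processing notes), which hold the processed, mean and background intensity of each spot, and a table that holds a ratio, the processed intensity divided by 1 constant per array. Coordinates of probes are those in the files (mm9). Of 59305 non-control spots, 55.4% (young) and 50.8% (aged) were well above background, and none was saturated. Outlier spots (90 and 93) were left out. The deposited intensities were taken to log2 and each array's 75th percentile over non-control spots was subtracted, which follows the study's methods. Repeated spots were averaged per probe. A probe had to be well above background on 1 array or both, and each gene took the value of its brightest such probe. RefSeq symbols matched 33767 of 56605 probes.

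No test was possible with 1 array per age. Errors beside signals and differences are those of the scanner's error model, or propagated from it, and cover 1 array's measurement only. Spots of 271 repeated probes with at least 9 usable spots gave a median SD of 0.033 (log2) for aged minus young. Named in full are the 3 highest and 3 lowest genes, those past 2-fold and those whose probes differed by over 1 on the log2 scale, and the rest by group. The genes, lists and rules were chosen with earlier results of these data known. The alternatives were other scalings, filters and probe rules, with normexp (offset 50) and loess (span 0.7, 3 iterations) in limma 3.58.1 under R 4.3.3. Python 3.11.15, numpy 2.4.6, pandas 2.3.3 and matplotlib 3.10.9 were used. The steps were tested on simulated data. Some genes of the lists are not reported here.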

Additional observations from a re-analysis of the deposited data

How the results depend on the processing

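With 1 array per age no replicate could be left out, and both arrays lay on the same slide. No paired analysis applied, because the arrays came from different mice with no pairing between them, and no difference was tested. The counts of genes 2-fold or more above and below young were 0 and 0 under all 14 alternatives, and the width of the middle 50% of the differences (0.22) stayed between 0.19 and 0.25. The median difference of 0.34 became 0.51 with median centring, 0.22 with the 75th percentile taken over the probes measured on both arrays, 0.12 with quantile normalization, 0.063 with loess, 0.082 with the spike-in controls, 0.25 with normexp, 0.30 with the mean over the probes of a gene and -0.036 with unscaled intensities, an alternative chosen after seeing the data. It moved by less than the spread between repeated spots in the other 6, which include the authors' processed table and, also chosen after seeing the data, RefSeq probes only and the set without Psmc3ip. The number of genes above 0 was 41, and 29 with quantile normalization, 29 with the spike-in controls, 27 with loess and 19 unscaled. Under the other alternatives it lay between 38 and 43. The excess of the median over that of all genes, 0.24, became 0.091 with quantile normalization, 0.10 with loess, 0.15 with normexp, 0.10 with no filter on dim probes and 0.17 with probes above the 75th percentile only. The gap of Psmb8 to Psmb5, -0.40, became -0.25 with quantile normalization, -0.21 with loess and -0.35 with normexp, and that of Psmb9 to Psmb6, -0.94, became -0.43, -0.55 and -0.83 in the same order. The gap of Psmb10 to Psmb7 did not move beyond the spread between spots under the 13 alternatives that apply to it. For single genes, 321 of 567 values under alternatives moved by more than that spread. The cause of these changes was not tested. Signal over background limits the values of Psma8 and Psmb11, which were measured on neither array.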
